A study of Mus musculus with 39 samples.

Results

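The 10 genes described here mark the epithelium of the distal lung and were chosen by symbol, not by a cut on their values. They are Sftpa1, Sftpb, Sftpc and Sftpd, which encode the surfactant proteins, Abca3, Lamp3 and Napsa, which act in alveolar type 2 cells, Ager and Hopx of alveolar type 1 cells, and Scgb1a1, the secretory protein of airway club cells. All 10 of 10 were found among the 24537 genes of the table that holds kidney, liver and lung and among the 52508 symbols of the skin table. RNA came from whole tissues of perfused C57BL/6 male mice that carry Prf1-/-, a loss of perforin that the young controls share with both old groups. Young mice were untreated and 3 months old, and there were 4 of them for each tissue except skin, which had 3. Old mice were 20 months old and had received either ABT-737, an inhibitor of anti-apoptotic BCL-2 family proteins, at 25 mg/kg, or its vehicle from the age of 18 months, with 3 mice per treatment and tissue numbered 3, 4 and 5. The treatment labels of ABT-737 replicates 4 and 5 read ABT-738 and ABT-739, and these libraries were kept in the ABT-737 group that their titles give. No wild-type mice and no untreated old mice were sequenced in the libraries analysed here, so age and vehicle cannot be told apart in the old vehicle group. Reads were taken from the 3′ ends of transcripts by a bulk form of MARS-seq, and the values are whole-number counts per gene.

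Gas exchange in the alveolus rests on a pair of epithelial cell types. Type 1 cells are thin and cover most of the surface, and type 2 cells are cuboidal, secrete surfactant and act as progenitors of type 1 cells. Surfactant is a film of phospholipid and protein that lowers surface tension. It is packed in lamellar bodies, lysosome-related organelles whose lipid is loaded by the transporter ABCA3 and whose membrane carries LAMP3. SP-B and SP-C are small hydrophobic proteins that spread the lipid, and SP-A and SP-D are collectins that also bind microbes. Club cells line the small airways, detoxify inhaled compounds and secrete SCGB1A1.

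Lung identity was checked first. Total counts per lung library ran from 1046508 to 2600092, and the 10 genes took from 3.18% to 5.89% of all lung counts, against at most 0.669% in kidney, 0.0281% in liver and 0.0565% in skin. The summed level of 5 kidney-defining genes was at most 17.4 counts-per-million (CPM) of the library total in any lung library. That of 5 liver-defining genes reached 739 CPM of the library total, in ABT-737 replicate 4. Among the liver-defining genes, Cyp2e1 had a mean of 280 ± 445 CPM (SD, n = 3) in ABT-737-treated lungs. Alb, Apoa1 and Ttr had means of 2.70, 2.75 and 3.24 CPM there. ABT-737 replicate 3 stood apart by its red cell genes, whose sum was 48051 CPM against 5071 and 8291 in the other ABT-737-treated lungs, 2253 to 16839 in vehicle-treated lungs and 1417 to 2707 in young lungs. In these bulk samples, fewer cells of a type and less RNA per cell cannot be told apart. Unless given relative to library totals, CPM here and below are scaled by the trimmed mean of M values (TMM), which puts the libraries of a tissue on a common scale.

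Scgb1a1, Sftpc, Sftpb, Sftpa1, Lamp3, Sftpd and Ager were nearly restricted to lung among the 4 tissues. Sftpc had 15011 to 31161 counts in lung libraries, and at most 7 in kidney and 5 in liver. Scgb1a1 had 19305 to 43409 in lung, at most 9 in kidney and 6 in liver. Ager, which encodes the receptor RAGE and is abundant on the basal side of type 1 cells, had 2960 to 8477 in lung and 4 to 10 in kidney. The other 3 genes were found well outside the lung. Napsa, an aspartic protease that processes pro-SP-B, had a higher level in kidney than in lung, with 4172 to 6191 CPM of the library total in the 10 kidneys and 428 to 821 in the 10 lungs, and these ranges did not overlap. Abca3 took 393 to 545 CPM of the library total in kidney and 208 to 509 in lung, and these ranges overlapped. Hopx, a homeodomain protein that does not bind DNA itself, took 392 to 1342 CPM of the library total in lung, 22.3 to 192 in liver and 10.1 to 24.3 in kidney, where only the ranges of liver and kidney overlapped. In the separate skin table, on another transcript, it took 112 to 329. These comparisons between tissues carry no test.

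The next comparison sets lungs of old vehicle-treated mice against those of untreated young mice, all without perforin. Age and vehicle cannot be told apart in it. The fitted log2 fold change was below 0 for all 10 genes, with a median of -0.38 against 0.04 over all 11949 genes tested, and 1 of the 10 passed the test (edgeR quasi-likelihood, Benjamini-Hochberg adjusted p under 0.05). In this comparison 12.9% of all genes tested were called in either direction. The 10 genes share cells and libraries and are not independent of each other.

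Lamp3, at chr16:19653381-19706365 on the minus strand of mm10, was the gene that passed. It encodes a lamellar body membrane protein of type 2 cells and is also made by mature dendritic cells. Its 4 young lungs had 1219.8, 1372, 1275 and 1394 CPM, from 1973 to 2682 counts. The vehicle-treated lungs had 399.8, 678 and 268 CPM, from 596, 1580 and 717 counts. Every vehicle-treated lung lay below every young lung. The mean was 448.5 ± 209 CPM (SD, n = 3) in vehicle-treated and 1315 ± 82.1 CPM (SD, n = 4) in young lungs, 2.93-fold lower in the fit (log2 fold change -1.55, SE 0.41, edgeR adjusted p = 0.0234). The direction held in every fit tried. The call did not: the adjusted p was 0.0519, 0.0575, 0.0532 and 0.0572 without young replicates 1, 2, 3 and 4 in turn, and 0.0744 and 0.111 without vehicle replicates 3 and 5. Without vehicle replicate 4, the highest of its group, Lamp3 remained called.

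Ager was the other gene whose groups did not overlap, though it did not pass the test. Its young lungs had 3883, 3586, 3287 and 4407 CPM and its vehicle-treated lungs 3007, 2466 and 1107 CPM. The log2 fold change was -0.79 (SE 0.41, edgeR adjusted p = 0.208), and it was -0.47 without vehicle replicate 5. So 2 of the 10 genes lay lower without overlap, where 14.7% of all genes tested did so.

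The surfactant protein genes overlapped between young and vehicle-treated lungs. Sftpb, without which lamellar bodies and tubular myelin do not form, had 3985, 4449, 6015 and 4306 CPM in young lungs and 4336, 3058 and 2868 CPM with vehicle, a log2 fold change of -0.45 (95% interval -1.19 to 0.28). Its vehicle replicates 4 and 5 lay below every young lung and replicate 3 did not. Sftpc, the gene most specific to type 2 cells, had 13992 to 18052 CPM in young and 16576, 13264 and 11299 CPM in vehicle-treated lungs, a log2 fold change of -0.19 (95% interval -0.97 to 0.59). Sftpa1, a collectin gene, had 5578, 7100.3, 5202 and 5563 CPM in young lungs and 6166, 3451 and 5037 CPM with vehicle, with a log2 fold change of -0.26. Sftpd, the other collectin gene, had 2559, 2241, 1984 and 1739 CPM in young lungs and 1648, 1856 and 1691 CPM with vehicle, with -0.30. The intervals of all 4 reach from a decrease to an increase. Abca3 had 393, 426, 457 and 530.2 CPM in young lungs and 305, 426 and 203 CPM with vehicle, where only replicate 4 reached the young range, and its log2 fold change was -0.54 (95% interval -1.21 to 0.13). Napsa had 643, 655, 639 and 784 CPM in young lungs and 759, 494 and 669.6 CPM with vehicle, with -0.09 (95% interval -0.66 to 0.49).

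Hopx and Scgb1a1 varied widely among mice of a group, and their groups overlapped. Hopx had 1339, 1021, 1320 and 420.03 CPM in young lungs and 1223, 398 and 516 CPM in vehicle-treated lungs, so its lowest young library lay near its lowest vehicle library (log2 fold change -0.53, SE 0.46). Scgb1a1 had 15074 to 21760 CPM in young lungs and 20105, 18616 and 7221 CPM in vehicle-treated lungs. Vehicle replicate 5 alone was low for Scgb1a1, and without that library its log2 fold change went from -0.30 to 0.04.

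Vehicle replicate 5 was the lowest of the 10 lungs for 6 of the 10 genes, which were Sftpb, Sftpc, Abca3, Lamp3, Ager and Scgb1a1. The same library had the highest summed level of 9 lymphocyte and general leukocyte genes, Ptprc among them, called lymphocyte genes below. That sum was 2808 CPM against 932 and 904 in the other vehicle-treated lungs and 163 to 238 in young lungs. The library also had the lowest summed level of 12 endothelial genes, 1270 CPM against 4423 to 4843 in young lungs. It was also the lowest for the summed levels of the type 1, club and secretory, ciliated, mesenchymal, and muscle and thyroid genes listed below. For the further type 2 and surfactant lipid genes ABT-737 replicate 5 was the lowest. The share of all lung genes that were lowest in vehicle replicate 5 was not computed, so 6 of 10 has no background. The part of these differences in the results was not tested. Without vehicle replicate 5 the median log2 fold change of the 10 genes was -0.29.

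**Figure D1:**
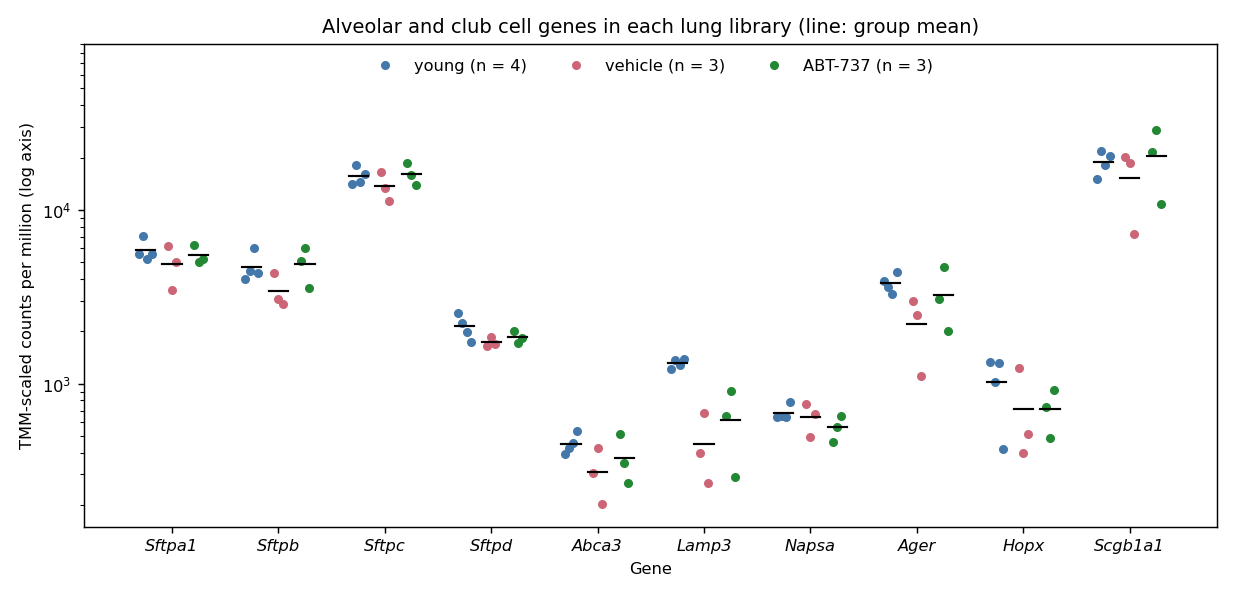
TMM-scaled CPM (log axis) of the 10 genes in each of the 10 lung libraries, coloured by group, with a line at each group mean. All 3 vehicle-treated and all 3 ABT-737-treated lungs lie below the 4 young lungs for Lamp3, and the groups overlap for most other genes.

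ABT-737-treated lungs were set against young lungs, which share the young libraries with the comparison above. Here 0 of 10 genes passed the test in edgeR and 0 in DESeq2, with 1 gene at an unadjusted p under 0.05, and 2.55% of all genes tested were called. Lamp3 had 654, 903 and 289 CPM in ABT-737-treated lungs, all below the young lungs (log2 fold change -1.10, SE 0.40, edgeR adjusted p = 0.142). It was the only 1 of the 10 whose groups did not overlap, where 8.74% of all genes tested were lower without overlap. Without ABT-737 replicate 4, the highest of its group, Lamp3 had a log2 fold change of -1.49 and passed (edgeR adjusted p = 0.0428). Sftpc had 18595, 15818 and 13942 CPM with ABT-737, from below to above the young range. Hopx had 734, 488 and 919 CPM, all within the young range, and Scgb1a1 had 21501, 28667 and 10748 CPM, wider than the young range on both sides. The log2 fold changes of the other 9 genes lay between -0.52 for Hopx and 0.11 for Scgb1a1, and the median of the 10 was -0.21 against 0.07 over all genes.

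The comparison of ABT-737 with vehicle asks how lungs of drug-treated old mice differed from those of other old mice. No gene of the 10 passed the test: edgeR called 0 of 10 and DESeq2 0 of 10, and 0 of the 10 had an unadjusted p under 0.05. Over all genes edgeR also called 0%, with 1919 genes at an unadjusted p under 0.05, while DESeq2 called 342. With the replicate numbers as a block in the 6 old lungs, 72 genes were called and again 0 of the 10. The titles do not state such a pairing. The fitted change was above 0 for 9 of the 10 genes, with a median of 0.25 against 0.04 over all genes. Ager was 0.57 (SE 0.43), Sftpb 0.51 (SE 0.37), Lamp3 0.45 (SE 0.42) and Scgb1a1 0.41 (SE 0.50), and their edgeR adjusted p ran from 0.515 to 0.724. Single libraries moved these values: without ABT-737 replicate 4, Lamp3 was 0.06 and Ager 0.20, and without vehicle replicate 5, Scgb1a1 was 0.06 and the median of the 10 genes 0.09. For 0 of the 10 did the groups stand apart, where 5.18% of all genes tested lay higher and 6.63% lower without overlap.

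Sftpb had 5055, 6008 and 3543 CPM with ABT-737, of which the lowest lay inside the vehicle range of 2868 to 4336 CPM. The same-numbered lungs can be read side by side, though they come from different mice and the titles state no pairing. Ager was nearly equal in the lungs numbered 3, 3061 with ABT-737 and 3007 CPM with vehicle, and higher with ABT-737 in those numbered 4 (4686 and 2466 CPM) and 5 (2006 and 1107 CPM). Sftpa1, Sftpb, Sftpc, Lamp3, Ager and Scgb1a1 were higher with ABT-737 in 3 of 3 pairs. Sftpd, Abca3 and Hopx were higher in 2 of 3, and Napsa in 1 of 3. How many of all lung genes were higher in 3 of 3 such pairs was not computed, so these counts have no background. They reuse the libraries of the test above and add no independent evidence. The largest ratio among these pairs for Sftpb, 0.97 on the log2 scale, came from the pair numbered 4. For Lamp3 the values were 0.71, 0.41 and 0.11.

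**Figure D2:**
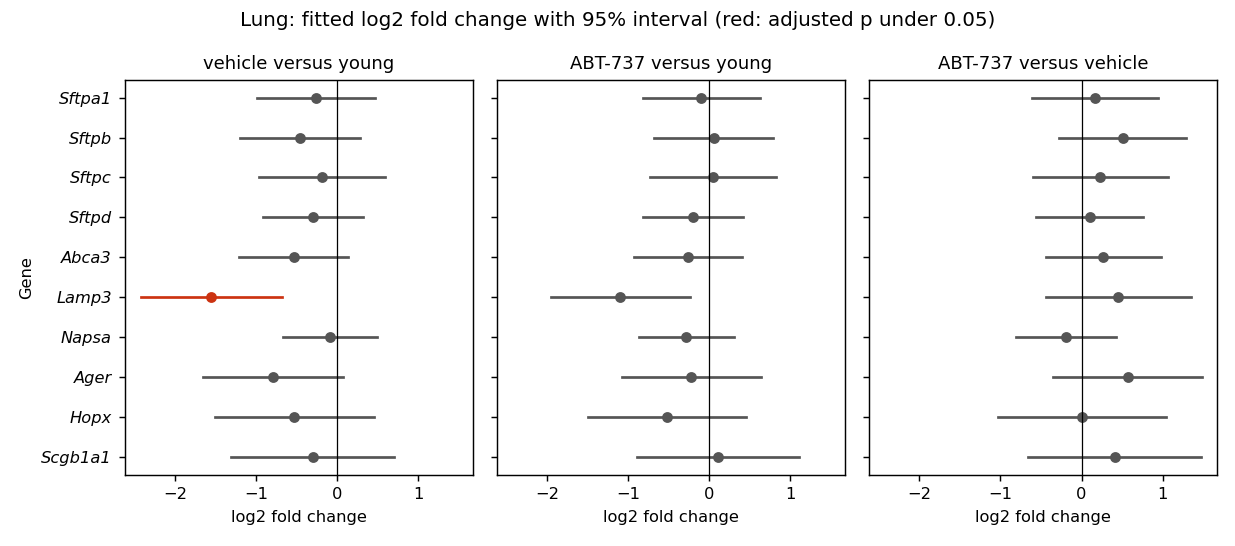
Fitted log2 fold change (point) and its 95% interval (line) for the 10 genes in 3 lung comparisons, with calls in red. Only Lamp3 between vehicle and young is called, at -1.55, and 9 of 10 points lie above 0 between ABT-737 and vehicle while each interval there crosses 0.

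Other genes of the same cells were read from lists written from general knowledge. As background for the list counts, 565 of all 11949 genes tested were called lower and 974 higher between vehicle-treated and young lungs. Of 22 further genes of type 2 cells and surfactant lipid that were tested, 17 were lower and 5 higher in vehicle-treated than in young lungs, 5 were called lower and 0 higher, and their median log2 fold change was -0.44. Acoxl, an acyl-CoA oxidase-like gene of type 2 cells, fell most among those called, from 218 ± 37.3 CPM (SD, n = 4) to 58.1 ± 31.7 CPM (SD, n = 3), a log2 fold change of -1.91 (edgeR adjusted p = 0.00845). Cxcl15, the chemokine lungkine, fell by 1.38 on the log2 scale (edgeR adjusted p = 0.0239). Lgi3, a secreted protein gene, fell by 1.13, S100g, a calcium-binding protein gene, by 1.31, and Elovl1, an enzyme that lengthens fatty acids, by 1.01. Slc34a2, the phosphate transporter of type 2 cells, did not pass at -0.45. Between ABT-737 and vehicle 16 of the 22 were higher and 0 were called. Between ABT-737 and young lungs 1 was called higher, Scd1, a fatty acid desaturase, at 1.93 (edgeR adjusted p = 0.0474), and 0 lower. There 257 of all 11949 genes tested were called higher and 48 lower.

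Of 16 type 1 cell genes, 13 were lower in vehicle-treated than in young lungs with a median of -0.86, and 0 were called. Gprc5a, a retinoic acid-induced receptor gene, had 3953 ± 432 CPM (SD, n = 4) in young and 1369 ± 794 CPM (SD, n = 3) in vehicle-treated lungs (log2 fold change -1.53, edgeR adjusted p = 0.0602). Rtkn2 was at -1.50 (edgeR adjusted p = 0.0675). Against vehicle, 15 of the 16 were higher with ABT-737 with a median of 0.72, and 0 were called, with Akap5, an anchoring protein gene, at 2.08 (edgeR adjusted p = 0.129).

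Of 13 club and secretory genes tested, 9 were lower in vehicle-treated lungs. Muc5b, the gel-forming mucin of the airway, was called and fell by 1.42 on the log2 scale from 127 ± 34.3 CPM (SD, n = 4) to 47.5 ± 13.0 CPM (SD, n = 3, edgeR adjusted p = 0.0125). Of 12 ciliated cell genes, 6 were lower and 6 higher with a median of -0.0011, and 0 were called. Among 11 transcription factors of lung epithelium, Etv5, a target of FGF signalling in type 2 cells, and Klf5 were called lower in vehicle-treated lungs, both at -1.31. Nkx2-1, the factor that sets lung epithelial identity, was at -0.46 (edgeR adjusted p = 0.253). All 11 factors were higher with ABT-737 than with vehicle and 0 were called. Of 9 genes of epithelium in general 7 were lower in vehicle-treated lungs, and of 7 genes of transitional alveolar cells 3 were lower, with 0 called in either list.

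Genes of other lung cells moved in the comparison of vehicle-treated with young lungs, where 565 of all 11949 genes tested were called lower and 974 higher. Of 9 lymphocyte genes 8 were called higher in vehicle-treated than in young lungs, with a median log2 fold change of 2.93, and the summed levels did not overlap, 904 to 2808 against 163 to 238 CPM, with 247 to 1077 CPM in ABT-737-treated lungs. Of 12 endothelial genes 11 were lower and 2 were called, and of 11 mesenchymal genes 9 were lower and 4 were called. Of 5 red cell genes 2 were called higher, and of 10 alveolar macrophage genes 2 were called higher. Of 7 muscle and thyroid genes tested 5 were lower and 0 were called, of 4 liver-defining genes tested 4 were lower and 1 was called, and 1 skin-defining gene and 0 kidney-defining genes could be tested, with 0 called. Between ABT-737 and vehicle lungs 11 of 12 endothelial, 9 of 11 mesenchymal, 5 of 7 muscle and thyroid and 5 of 5 red cell genes were higher. So the rise there was not particular to epithelial lists. Of the lymphocyte genes 3 were higher and 6 lower, and of the alveolar macrophage genes 5 were higher and 5 lower. In these lists 0 genes were called, and 47.2% of all genes tested lay below 0. The part of these differences in the levels of the 10 genes was not tested.

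Promoters were read for the genes that carry these results, because the lung factors NKX2-1 and FOXA act through short motifs near the start sites of surfactant genes. RefSeq windows of 300 bases, from 250 before to 50 after a start site in build GRCm38.p6, matched 6 of the 10 genes in 7 windows. Capitals mark CTCAAG, the core of the NKX2-1 motif, and TGTTTNC, that of the FOXA motif, on either strand. CTCAAG is held by 15.9% and TGTTTNC by 20.5% of all 32851 windows. The first window below belongs to Sftpb, a surfactant gene that did not pass, at chr6:72304360-72304659 on the plus strand. The second belongs to Lamp3, the gene called in lung, at chr16:19706316-19706615 on the minus strand, and the third to Hopx, called in kidney and liver, at chr5:77095218-77095517 on the minus strand, at the start of the transcript counted in lung.
Sftpb: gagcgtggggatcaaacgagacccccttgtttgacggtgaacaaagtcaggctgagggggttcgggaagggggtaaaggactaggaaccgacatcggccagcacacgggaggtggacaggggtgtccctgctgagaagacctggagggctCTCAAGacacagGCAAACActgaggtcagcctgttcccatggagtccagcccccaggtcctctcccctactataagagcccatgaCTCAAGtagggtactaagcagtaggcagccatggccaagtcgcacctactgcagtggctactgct
Lamp3: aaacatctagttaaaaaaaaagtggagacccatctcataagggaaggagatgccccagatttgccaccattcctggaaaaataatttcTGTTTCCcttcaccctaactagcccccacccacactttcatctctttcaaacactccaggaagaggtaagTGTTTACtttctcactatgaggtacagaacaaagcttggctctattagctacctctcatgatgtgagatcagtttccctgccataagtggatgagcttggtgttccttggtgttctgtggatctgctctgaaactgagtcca
Hopx: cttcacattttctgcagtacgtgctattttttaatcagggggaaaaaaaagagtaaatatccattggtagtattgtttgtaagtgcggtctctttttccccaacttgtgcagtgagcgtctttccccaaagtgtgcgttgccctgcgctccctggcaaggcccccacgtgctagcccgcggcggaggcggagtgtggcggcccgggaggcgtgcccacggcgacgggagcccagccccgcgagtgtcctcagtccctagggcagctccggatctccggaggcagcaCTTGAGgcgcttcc

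The Sftpb window holds CTCAAG with its first base at -100 and at -15 from the start site and a FOXA core at -88 on the opposite strand. The Lamp3 window holds a FOXA core at -162 and at -92 and no CTCAAG. The Hopx window holds CTCAAG on the opposite strand at 37 bases after the start, and a second Hopx window upstream holds it at -112. The Sftpa1 window holds CTCAAG at -166, and those of Abca3 and Ager hold neither motif. These are matches of letters in short windows, not sites shown to be bound.

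Outside the lung, 3 of the 10 genes could be tested in kidney, 2 in liver and 4 in skin. The share of all genes whose groups did not overlap was not computed in these tissues. Hopx was called lower in the old vehicle-treated kidney, the only 1 of 3 genes called there, where 13.3% of all genes tested were called. It had 24.4, 22.0, 19.6 and 23.5 CPM in young kidneys and 13.0, 12.3 and 15.0 CPM in vehicle-treated kidneys, from 18 to 80 counts, and the groups did not overlap (log2 fold change -0.72, SE 0.22, edgeR adjusted p = 0.0363). With ABT-737 the values were 10.3, 18.3 and 15.1 CPM, and 0 of 3 genes were called against young (Hopx -0.61, edgeR adjusted p = 0.153), where 2.12% of all genes were, or against vehicle, where 1.35% were. The call between vehicle and young was lost, with adjusted p from 0.0678 to 0.110, when young replicate 1, 2 or 4 or any vehicle-treated kidney was left out. Napsa and Abca3 were not called in kidney. Napsa had a mean of 5161 ± 401 CPM (SD, n = 4) in young, 5233 ± 1062 CPM (SD, n = 3) in vehicle-treated and 5167 ± 482 CPM (SD, n = 3) in ABT-737-treated kidneys, and its log2 fold change between vehicle and young was 0.02 (95% interval -0.33 to 0.37).

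Hopx was also called lower in old vehicle-treated liver, 1 of 2 genes tested, where 22.6% of all genes tested were called. Young livers had 145, 192, 181 and 154 CPM and vehicle-treated livers 21.8, 41.0 and 114 CPM, from 5, 35 and 89 counts (log2 fold change -1.38, SE 0.35, edgeR adjusted p = 0.0106). The groups did not overlap, and vehicle replicate 5 lay nearest to the young livers. Without vehicle replicate 5 the log2 fold change was -2.27, and without vehicle replicate 4 it was -1.08 and was no longer called (edgeR adjusted p = 0.0579). ABT-737-treated livers had 103, 98.6 and 76.7 CPM, above vehicle replicates 3 and 4, and below vehicle replicate 5 and every young liver. Hopx was not called against young (-0.87, edgeR adjusted p = 0.145, with 8.4% of all genes called) or against vehicle (0.51, edgeR adjusted p = 0.580, with 3.85% of all genes called). Without vehicle replicate 5, Hopx was called higher with ABT-737 than with vehicle, at 1.41 (edgeR adjusted p = 0.0203), and it was then called lower than in young livers, as it was without vehicle replicate 3.

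**Figure D3:**
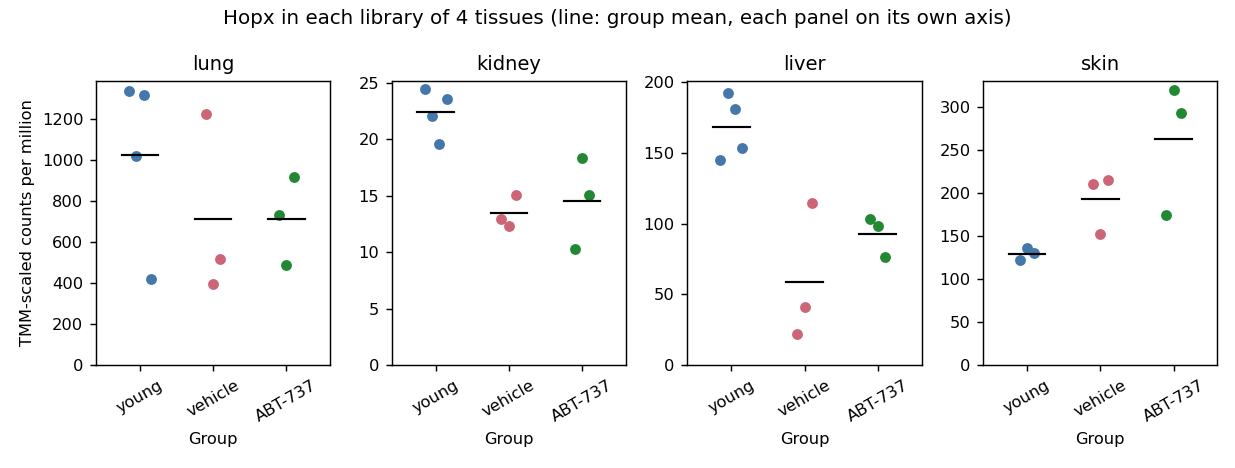
TMM-scaled CPM of Hopx in each library of lung, kidney, liver and skin, with a line at each group mean and a separate axis for each tissue. Both old groups lie below the young libraries in kidney and liver and above them in skin, where counts were made on another transcript.

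In skin, Hopx lay higher in both old groups than in the 3 young libraries, which had 122, 136 and 130.5 CPM. Vehicle-treated skin had 211, 153 and 215 CPM (log2 fold change 0.57, edgeR adjusted p = 0.154) and ABT-737-treated skin 175, 320.03 and 293 CPM (log2 fold change 1.02, edgeR adjusted p = 0.0513). Neither comparison passed the test in edgeR. The skin table counts Hopx on another transcript, in a window that overlaps the antisense gene Hopxos, for which at most 5 counts were listed in any skin library.

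Napsa, whose transcript in skin was counted at chr7:44582354-44587033 on the plus strand of mm10, rose in old skin from a level near 0. It had 2, 5 and 15 counts in young skin, 42, 77 and 113 with vehicle and 117, 24 and 70 with ABT-737. In CPM these were 1.45 to 6.82, 18.5 to 31.2 and 9.40 to 30.4, so neither old group overlapped the young libraries. Napsa was the only 1 of 4 genes tested that was called between vehicle and young (log2 fold change 2.69, SE 0.56, edgeR adjusted p = 0.0215, with 11.2% of all genes called) and between ABT-737 and young (2.36, SE 0.56, edgeR adjusted p = 0.0449, with 5.17% of all genes called). Between ABT-737 and vehicle 0 of 4 were called in edgeR, with 0 at an unadjusted p under 0.05, as were 0% of all genes in edgeR. The first call was lost without young replicate 1 or 2 or vehicle replicate 5, with adjusted p from 0.0645 to 0.0877, and the other was lost without any of 7 libraries, which were young replicates 1, 2 and 3, vehicle replicates 3 and 4 and ABT-737 replicates 4 and 5, with adjusted p from 0.0557 to 0.154. In skin the counted window of Napsa overlaps the antisense gene Gm15396, for which at most 4 counts were listed. The summed level of 9 lymphocyte genes was 4.34 to 18.2 CPM for young skin and 49.2 to 132 CPM for vehicle. For ABT-737 it was 16.1 to 43.3 CPM, which overlapped young skin, unlike Napsa. The same sum in kidney was 15.2 to 18.7, 70.7 to 165 and 28.7 to 61.3 CPM, and in liver 5.96 to 17.3, 74.2 to 188 and 17.1 to 39.6 CPM, beside the Hopx values there. The part of these cells was not tested.

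ABT-737 replicate 4 of skin held trace counts of lung genes. Its counts were 176 for Sftpc, 124 for Scgb1a1, 50 for Sftpb, 44 for Sftpa1, 28 for Ager, 13 for Sftpd and 5 for Lamp3, of 2485280 in all. The other 8 skin libraries had at most 4 counts of Sftpc, 1 of Sftpb, 1 of Sftpa1, 2 of Sftpd and 4 of Lamp3. For Ager they had 2 to 9 and for Scgb1a1 1 to 54. So the counts of 7 of the 10 genes were highest in that library. Abca3 at 122, Napsa at 24 and Hopx at 817 counts lay within the range of the other skin libraries. Relative to library totals the membership changed: Lamp3, at 2.01 CPM, was below young replicate 1 at 2.68 CPM, and Hopx, at 329 CPM, was above ABT-737 replicate 5 at 296 CPM, the next highest. On that scale the library was the highest of the 9 skin libraries for 21.0% of all genes tested in skin.

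The traces were close to lung in their proportions for several genes. Per 100 counts of Sftpc, that skin library had 25.0 of Sftpa1, 28.4 of Sftpb, 15.9 of Ager, 70.5 of Scgb1a1, 2.84 of Lamp3 and 7.39 of Sftpd. In the 10 lungs the same ratios were 26.0 to 44.6, 23.1 to 41.6, 9.80 to 29.6, 63.9 to 181, 2.07 to 8.83 and 9.94 to 18.3. So Sftpb, Ager, Scgb1a1 and Lamp3 lay inside the lung range, and Sftpa1 and Sftpd below it. The 2 tables count these genes on different transcripts. Sftpc had 70.8 CPM of the library total in that skin library and at least 11618 in every lung library. Most other listed genes were not above all other skin libraries there, which cannot decide whether they share the pattern. Some are low in lung, as Muc5b with group means of 47.5 to 127 CPM. Others are high in skin itself, as Cyp2f2 with 34 to 1413 counts in the other skin libraries. Counts above all other skin libraries were found there for 2 of 23 further type 2 cell genes, 1 of 16 type 1 cell genes, 3 of 14 club and secretory genes, 2 of 12 ciliated cell genes, 1 of 12 lung transcription factors and 0 of 10 alveolar macrophage genes. Chosen after their values were seen, Sec14l3 of ciliated cells had 16 counts there and Cxcl15 of type 2 cells had 5, with 0 in each other skin library. In the same library 5 club and secretory genes, among them Bpifa1 and Muc5b, and 3 ciliated cell genes had 0 counts. Which step the traces came from was not tested.

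**Figure D4:**
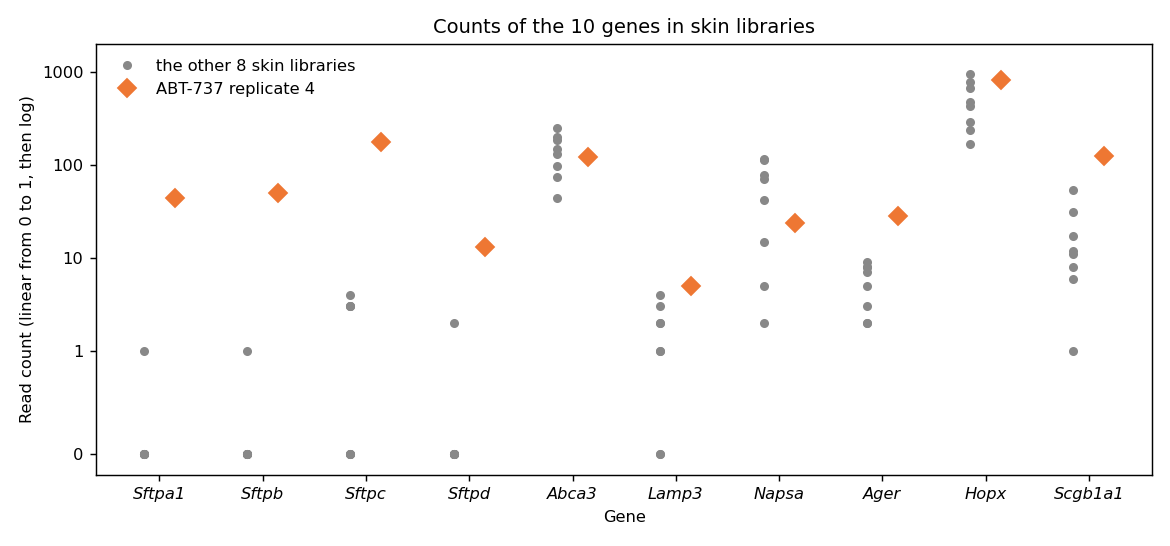
Read counts of the 10 genes in the 9 skin libraries, on an axis that is linear from 0 to 1 and logarithmic above, with ABT-737 replicate 4 as diamonds and the other 8 libraries as circles. The diamonds lie above every circle for 7 genes, from 5 counts of Lamp3 to 176 of Sftpc, and within the circles for Abca3, Napsa and Hopx.

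Lamp3 was also lower relative to Sftpc within libraries of old mice. Per 100 counts of Sftpc, Lamp3 had 7.60 to 8.83 in the 4 young lungs, 2.41, 5.11 and 2.37 in vehicle-treated lungs and 3.52, 5.71 and 2.07 in ABT-737-treated lungs. All 6 old lungs lay below all 4 young lungs. Ager per 100 counts of Sftpc was 19.9 to 27.7 for young lungs and 9.80 to 18.6 for vehicle, which did not overlap, and 14.4 to 29.6 for ABT-737, which overlapped both. These ratios use the counts of the tests above and add no independent evidence.

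Across the 10 lung libraries the 10 genes did not move as 1 unit. Pearson's r on the log2 scale, given as a description over libraries that share groups and scaling, was 0.88 between Ager and Scgb1a1, 0.82 between Ager and Lamp3 and 0.82 between Abca3 and Lamp3. It was 0.66 between Sftpa1 and Sftpc and 0.65 between Sftpb and Sftpc. Napsa ran from -0.26 with Abca3 to 0.37 with Sftpa1, and Hopx reached 0.56 with Sftpa1 but only 0.14 with Ager, its partner in type 1 cells. The genes most like Ager among 7387 others of at least 20 CPM were Hspb8, Cpne8, Fbln5, Mgl2 and Bcam, with r from 0.96 to 0.98. Those most like Scgb1a1 were Ift43, Plpp1, Pdk2, Rbp4 and Tspan7 (r from 0.93 to 0.96), and those most like Sftpc were Sfrp2, Perp, Fgf18, Trim16 and Arpin (r from 0.88 to 0.91).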

How the data were processed

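The submitters' processing notes name bcl2fastq, HISAT 0.1.5, HOMER and build mm10. The counts deposited by the authors are whole numbers that were not normalized. Kidney, liver and lung share a table with 1 RefSeq transcript per gene, and skin has its own on Ensembl transcripts, where 83.9% of 52311 matched windows end about 2000 bases past the transcript (within 10 bases). Use of strand and collapse of molecule barcodes are not given in the sources used here. The 95% intervals are those of the fitted log2 fold changes and include the spread between mice. The lung window of Abca3 overlaps D330041H03Rik on the other strand.

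Each tissue was fitted apart in edgeR 4.0.16 (limma 3.58.1, R 4.3.3), with its expression filter, TMM scaling, a quasi-likelihood fit of the 3 groups, Benjamini-Hochberg adjustment over all genes tested and a threshold of 0.05. The code was tested on simulated data. Alternatives were DESeq2 1.42.0, its size factors, total counts, other filters, fewer groups, a replicate block and each library left out. The genes, 16 lists and tests were chosen with earlier results of these data known. Named were all 10 genes, up to 4 genes of a list per comparison (called genes by adjusted p, otherwise the 2 largest changes) and the 5 genes most correlated with Sftpc, Ager and Scgb1a1. Elovl1, Slc34a2, Nkx2-1 and the list genes in the skin traces were chosen after their values were seen. Deviations of same-numbered vehicle and ABT-737 lungs had r of 0.18, 0.30 and 0.43 across genes. For lungs with unlike numbers r ran from -0.57 to 0.30, the highest between vehicle replicate 4 and ABT-737 replicate 3. The titles give only the numbers, so whether these mice are pairs is not settled. Other groups and tissues were not paired.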

Additional observations from a re-analysis of the deposited data

Results flagged for a closer look

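Dixon's test was applied to the 15 gene and tissue groups of 4 young libraries in which a gene was tested, where chance alone flags about 1 in 20. Napsa in young lung replicate 4, at 784 CPM, lay far above the other 3 young lungs, which had 639 to 655 CPM.

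Hopx moved in opposite directions between tissues: every old library of kidney and liver lay below every young library of its tissue, and every old library of skin lay above. Between vehicle and young the log2 fold changes were -0.72 in kidney, -1.38 in liver and 0.57 in skin, and between ABT-737 and young -0.61, -0.87 and 1.02. The difference between tissues was not tested, and skin was counted in another table on another transcript. The share of all genes whose groups did not overlap was computed for lung only. Between vehicle and young, 13.3% of all genes tested were called in kidney, 22.6% in liver and 11.2% in skin. Opposite directions without overlap were looked for over 48 pairs of tissues, genes and comparisons.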

How the results depend on the processing

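Lamp3 stayed lower in vehicle-treated than in young lungs in every alternative. The number of the 10 lung genes called between vehicle and young was 1, and it was 0 with a replicate block over all 3 groups (Lamp3 -1.28, edgeR adjusted p = 0.0763) and 0 to 1 with each library left out. Between ABT-737 and young it was 0, and 0 to 1 with each library left out. The replicate block also took the count from 1 to 0 between vehicle and young in kidney, liver and skin and between ABT-737 and young in skin. There the count was 2 with total count scaling, 3 in DESeq2 and 0 without ABT-737 replicate 4. The block fits a term for each replicate number. No old mouse is numbered 1 or 2, so young replicates 1 and 2 add nothing to the block's comparisons with young. In skin this leaves young replicate 3 as the only young library in them. The block also treats young and old mice of the same number as related, which the titles do not state. The cause of the other changes was not tested.

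Small changes reversed in direction. Hopx between ABT-737 and vehicle lungs was -0.054 with total counts, -0.023 without a filter and -0.000704 with only these groups, and Napsa between vehicle and young lungs was 0.0069 with total counts. With the block, Sftpa1 was 0.0019, Sftpd 0.0062 and Ager 0.069 between ABT-737 and young lungs. With each library left out, log2 fold changes between ABT-737 and vehicle lungs ran from -0.29 to 0.63 for Hopx, -0.035 to 0.35 for Sftpa1 and -0.015 to 0.56 for Abca3. Between vehicle and young lungs they ran from -0.22 to 0.063 for Napsa and -0.55 to 0.039 for Scgb1a1. Between ABT-737 and young lungs they ran from -0.14 to 0.23 for Sftpb, -0.076 to 0.13 for Sftpc, -0.21 to 0.0057 for Sftpa1, -0.24 to 0.41 for Scgb1a1 and -0.60 to 0.025 for Ager. Values that kept their direction also moved: between ABT-737 and vehicle lungs Lamp3 ran from 0.06 to 0.88, Ager from 0.20 to 0.86, Scgb1a1 from 0.06 to 0.70, Sftpb from 0.32 to 0.71 and the median of the 10 genes from 0.09 to 0.38. In other tissues, between ABT-737 and vehicle, they ran from -0.0896 to 0.31 for Hopx in kidney and -0.73 to 0.0068 for Napsa in skin. Of single-gene values, 583 kept their direction and call, 28 lost a call, 4 gained one and 28 reversed.

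Counts over all genes moved more. Between ABT-737 and vehicle lungs 0 genes were called, against 342 in DESeq2, 359 without a filter, 99 with the block over all groups and 72 with the block in the old lungs alone, which was chosen after seeing the data, as were the fits that leave out libraries of kidney, liver and skin. The old-lung block changed no call among the 10 genes. Between vehicle and young lungs the block took 1539 calls to 333. Between ABT-737 and young lungs 305 calls became 783 in DESeq2, 805 without a filter, 132 with total counts, 123 with at least 10 counts in every library, 487 with only these groups and 4 with the block. In skin the block gave 0 calls in both comparisons with young, and DESeq2 2665 and 2116 against 1592 and 735. In kidney the block took 1474 calls to 369 and in liver 1261 to 291. With each library left out the calls ran from 0 to 676 between ABT-737 and vehicle lungs (676 without ABT-737 replicate 4 and 122 without replicate 5), from 502 to 2426 between vehicle and young lungs and from 1 to 1399 between ABT-737 and young lungs (1 without any of the 4 young lungs, 36 without ABT-737 replicate 5 and 1399 without replicate 4). In skin they ran from 39 to 2459 between vehicle and young (39 without young replicate 1) and from 3 to 2875 between ABT-737 and young (3 without ABT-737 replicate 5). The shares of all genes called that stand beside the results rest on these counts.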
